A study of Mus musculus with 24 samples.

Results

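The 10 genes described here encode secreted inhibitors of Wnt signalling that are expressed in the dental mesenchyme of the mouse first mandibular molar. They are Dkk1, Dkk2, Dkk3, Sfrp1, Sfrp2, Sfrp4, Sfrp5, Frzb, Wif1 and Notum, and they were chosen by name from 56748 genes in the count table. All 10 passed the filter on low counts in every comparison. RNA was sequenced from wild-type ICR embryos, an outbred strain, in 24 libraries that fall into 8 groups of 3. The cap stage was taken at embryonic day 13 and the bell stage at embryonic day 15. At each stage the mesenchyme was sequenced whole (Cap-W, Bell-W) or after the tooth germ had been split with a fine needle into a lingual, tongue-side part (Cap-L, Bell-L) and a buccal, cheek-side part (Cap-B, Bell-B). Cap-stage parts of each side that had then been kept for 2 days in vitro make up the remaining groups, Cap-L+2D and Cap-B+2D. No group carried a mutation or received an agent. Whether the 3 libraries of a group came from separate litters is not clear from the sources used here, so the p-values may measure only technical spread.

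Wnt proteins are secreted, lipid-modified signals that bind Frizzled receptors and, in the canonical pathway, the co-receptors Lrp5 and Lrp6. Secreted inhibitors act at different points outside the cell. Dkk1 and Dkk2 occupy Lrp5 and Lrp6, whereas Dkk3 is a diverged relative with weak or no binding to them. The Sfrp proteins and Frzb, also called Sfrp3, carry a Frizzled-like domain that binds Wnt, Wif1 binds Wnt through a domain of its own, and Notum is an enzyme that removes the lipid from Wnt. Dkk1 and Notum are well-known feedback targets of canonical Wnt signalling in many tissues. In the tooth, Wnt signals pass between epithelium and mesenchyme and their level is known to influence the number and form of the teeth.

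The sequences upstream of Dkk1, Notum and Wif1 are shown because these 3 genes had the most similar course over the 8 groups among the inhibitors that rose from cap to bell on both sides. Each is the stretch of 250 bases that ends just before the start of the gene's canonical Ensembl transcript, read 5′ to 3′ on the gene's strand from the GRCm39 genome. Capitals mark CTTTGA, the core of the site bound by Tcf and Lef factors, which was searched on both strands (TCAAAG on the other), and no other motif was searched.
Dkk1, chr19:30527066-30527315, minus strand: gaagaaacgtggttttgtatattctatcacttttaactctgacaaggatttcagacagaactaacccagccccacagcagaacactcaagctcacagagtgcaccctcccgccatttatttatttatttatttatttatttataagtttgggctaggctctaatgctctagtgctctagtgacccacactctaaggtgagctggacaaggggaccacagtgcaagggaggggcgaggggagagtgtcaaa
Notum, chr11:120552020-120552269, minus strand: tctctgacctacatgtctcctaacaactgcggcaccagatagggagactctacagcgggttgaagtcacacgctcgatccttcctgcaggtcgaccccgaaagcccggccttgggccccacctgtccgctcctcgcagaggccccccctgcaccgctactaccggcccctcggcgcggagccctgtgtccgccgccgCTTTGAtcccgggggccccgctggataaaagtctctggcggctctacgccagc
Wif1, chr10:120869615-120869864, plus strand: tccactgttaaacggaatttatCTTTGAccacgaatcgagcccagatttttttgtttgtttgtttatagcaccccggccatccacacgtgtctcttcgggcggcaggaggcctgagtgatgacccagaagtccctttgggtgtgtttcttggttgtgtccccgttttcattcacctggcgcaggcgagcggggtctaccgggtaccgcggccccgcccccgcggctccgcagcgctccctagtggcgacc
The core was found once in the window of Notum, 53 to 48 bases before the start, and once in that of Wif1, 228 to 223 bases before it. The window of Dkk1 and those of the 7 other inhibitors held no match. Of 21757 such windows of protein-coding genes in the genome, 14.1% held at least 1 match, against 2 of these 10. A match describes letters in the window and was not tested for binding.

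Levels are given as CPM, the counts of a gene scaled to 1000000 per library, and made comparable between libraries with edgeR's TMM factors. The libraries held 20581720 to 39266497 counted read pairs, and the floor of 3 counts lay between 0.0764 and 0.146 CPM. Every inhibitor was above this floor in every library, the lowest being 8 counts for Sfrp5 and for Notum, each in a Cap-W library. The 3 libraries of each divided or cultured group lay close together, with a median coefficient of variation of 2.89% over the inhibitors and these 6 groups. The undivided groups were far more variable, with a median of 18.2% and a highest value of 138%, for Sfrp4 in Cap-W. In Cap-W replicate 1, ribosomal RNA from Rn18s-rs5 took 5.39% of the counts. In Bell-W replicate 3, epithelial markers summed to 1824 CPM, against 523 and 460 in the other Bell-W libraries.

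When exon length was taken into account, Sfrp2 was the most abundant inhibitor in every group, at a mean of 171 CPM per kb of exon over the 8 groups. Frzb (72.1) and Sfrp1 (70.8) came next on this per-length scale, followed by Wif1 (52.5), Dkk2 (50.9) and Dkk3 (42.1). Within single groups these 5 changed places, and the gene after Sfrp2 was Frzb in Cap-W and Cap-L, Sfrp1 in Cap-B and Bell-B, Dkk2 in Bell-L, Dkk3 in Cap-B+2D and Wif1 in Cap-L+2D and Bell-W. Sfrp4 (8.21), Notum (4.43), Dkk1 (3.16) and Sfrp5 (1.42) were more than an order of magnitude below Sfrp2. The order of the means was the same when exon bases shared with another gene were left out of the length. Sfrp2 shares 17.6% of its exon bases with the antisense gene Gm26771 and Notum 38.1% with the antisense genes Myadml2os and Notumos, and the counting ignored strand and dropped read pairs that overlapped several genes, so both are uncertain and may be undercounted. Added up per length, the 10 inhibitors came to 633 ± 5.69 (SD, n = 3) CPM per kb in Cap-L+2D and 581 ± 8.84 in Bell-L, and these were the highest sums. The sums were 418 ± 7.93 in Cap-L, 454 ± 7.39 in Cap-B, 430 ± 1.49 in Bell-B and 430 ± 1.14 in Cap-B+2D. Thus the lingual sum was below the buccal one at the cap stage and above it at the bell stage and after culture. The libraries of the sides did not overlap in any of these 3 settings. Such sums follow the most abundant genes, including Sfrp2 with its uncertain level. At the bell stage Sfrp2 was at 224 CPM per kb in Bell-L and 131 in Bell-B, and Dkk2 at 97.1 and 31.7. Yet 6 of the 10 inhibitors were higher in all Bell-B libraries than in all Bell-L libraries.

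**Figure D1:**
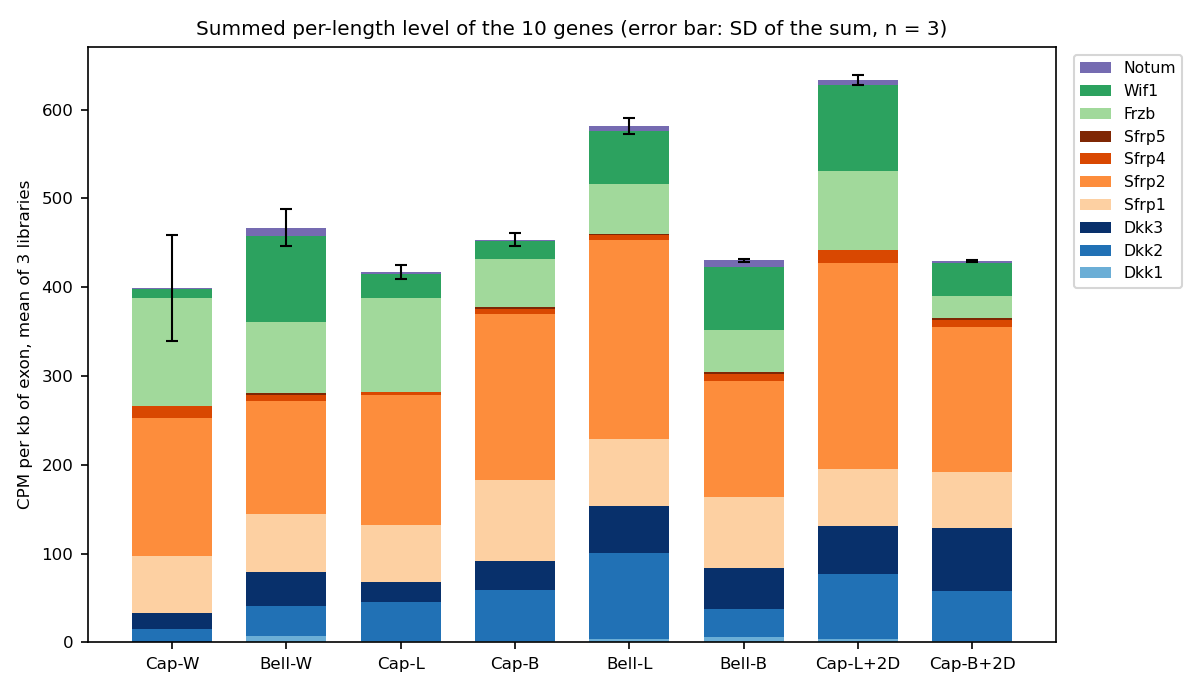
Per-length level (CPM per kb of exon, y axis) of the 10 inhibitors, stacked by gene, in the 8 groups (x axis); error bars are the SD of the sum over 3 libraries. Sfrp2 forms the widest segment in every group, and the sums of Cap-L+2D (633) and Bell-L (581) stand above the others, which lie between 399 and 467.

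The range over the groups differed widely between the genes. Over the 6 groups of divided tissue, Sfrp1 and Sfrp2 varied by 1.46-fold and 1.77-fold between their highest and lowest group means, and Sfrp5 varied by 11.6-fold. Wif1 (4.91-fold), Frzb (4.22-fold), Notum (4.15-fold), Sfrp4 (4.12-fold), Dkk1 (4.03-fold), Dkk2 (3.07-fold) and Dkk3 (3.06-fold) were in between. With the scattered undivided groups included, the ranges were 12.6-fold for Notum, 9.08-fold for Dkk1, 8.94-fold for Wif1 and 6.89-fold for Dkk2. Cap-W gave the lowest mean for Dkk1, Dkk2, Dkk3, Wif1 and Notum and the highest for Frzb. Neighbours in the order that overlapped in their libraries included Bell-W and Bell-B for Dkk1, Cap-L+2D and Bell-L for Sfrp2, Cap-W and Cap-L for Frzb, Cap-L+2D and Bell-W for Wif1, and Bell-L and Cap-L+2D for Notum.

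**Figure D2:**
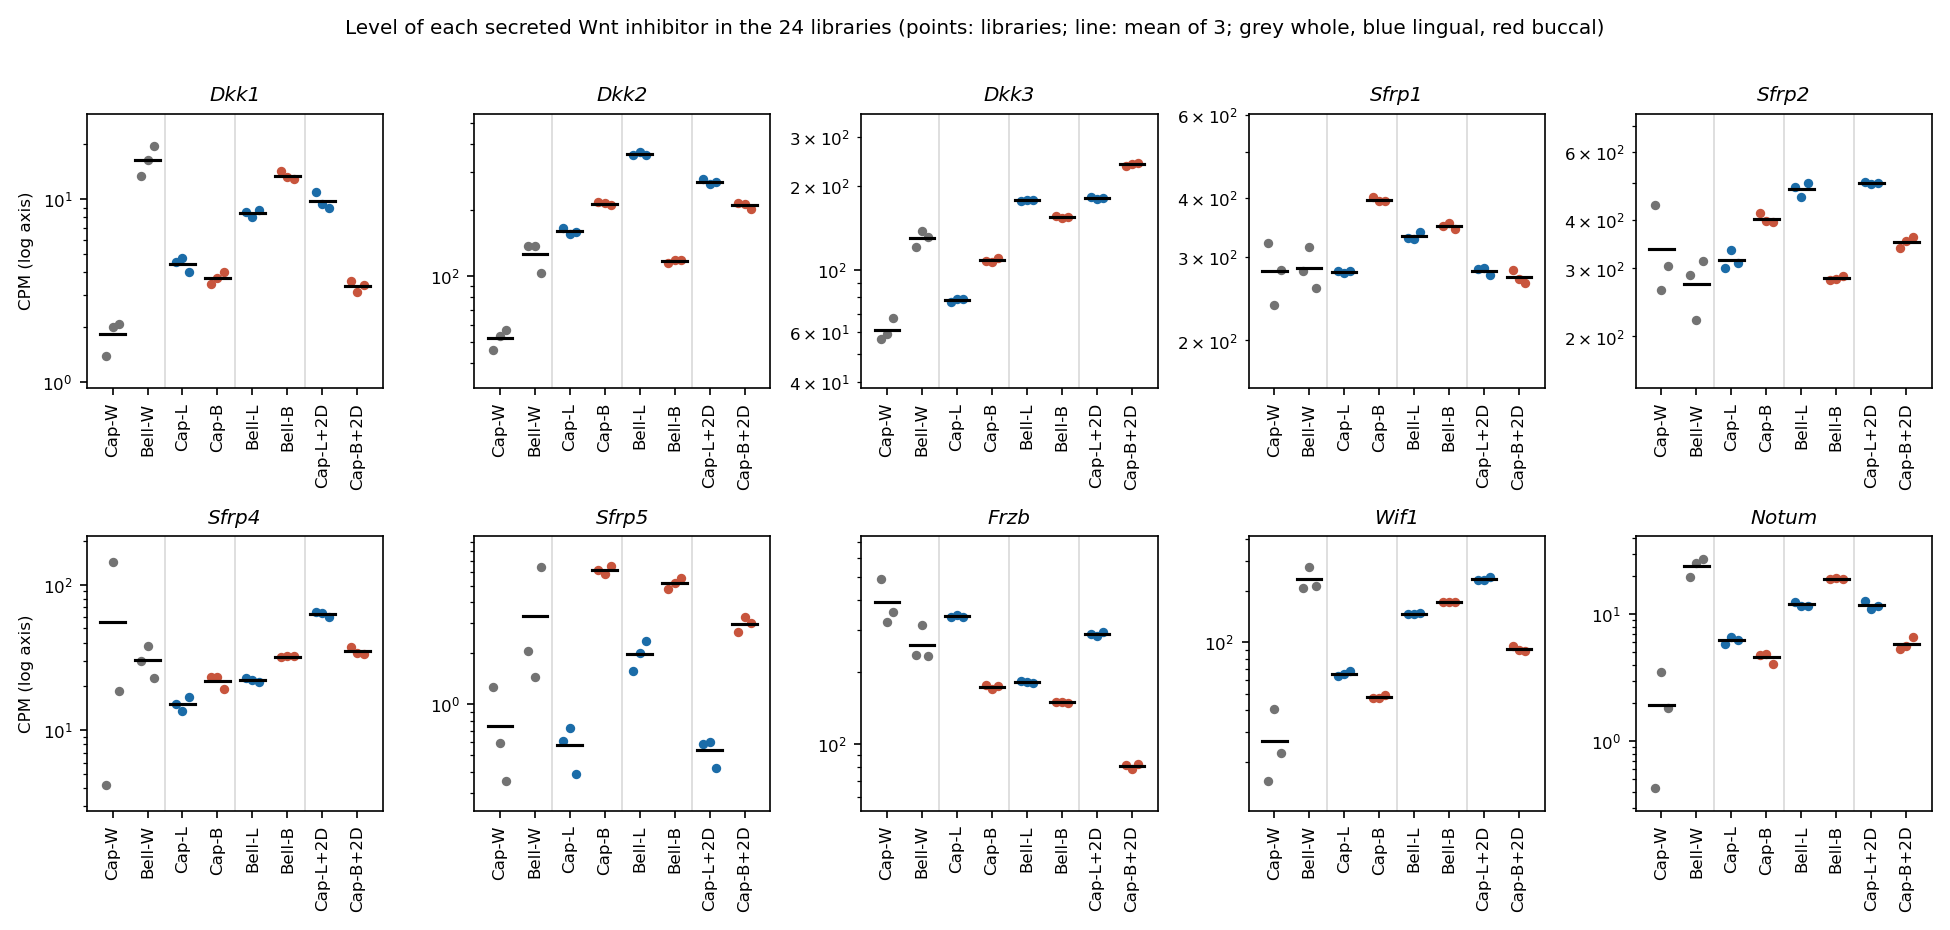
CPM (y axes, logarithmic, a separate range for each gene) of the 10 inhibitors in the 24 libraries (points) of the 8 groups (x axes), with the group mean as a black line; grey marks undivided, blue lingual and red buccal mesenchyme. Libraries of 1 divided group lie close together, whereas Sfrp4, Sfrp5, Wif1 and Notum scatter widely in Cap-W, and Sfrp5 also in Bell-W.

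All 10 markers of dental mesenchyme, such as Msx1, Pax9 and Barx1, were above the floor in every group, and they summed to between 3156 and 4609 CPM per library. Markers of other tissues moved with the sides, and in bulk samples fewer cells of a type cannot be told apart from less RNA per cell. The 6 skeletal muscle markers summed to between 19.4 and 20.3 CPM in Cap-L and between 231 and 247 in Cap-B. They reached 112 to 122 in Bell-L and 962 to 990 in Bell-B, and 308 to 330 in Cap-L+2D against 3995 to 4140 in Cap-B+2D. The 5 bone markers went the other way, at 521 to 546 CPM in Cap-L against 207 to 218 in Cap-B, where Bglap was at or under the floor, and at 1941 to 1964 in Cap-L+2D against 369 to 382 in Cap-B+2D. The 8 epithelial markers summed to 440 to 487 CPM in Cap-L and 311 to 325 in Cap-B, and to 314 to 346 in Cap-L+2D and 89.1 to 90.8 in Cap-B+2D. Cartilage markers summed to 262 to 279 CPM in Cap-L and 125 to 130 in Cap-B, with Matn1 at or under the floor in both. The 5 markers of glia and neurons summed to 24.3 to 26.3 CPM in Cap-L and 39.5 to 42.5 in Cap-B. They reached 27.5 to 32.2 in Bell-L and 44.2 to 45.1 in Bell-B. After culture they were at 17.1 to 19.3 in Cap-L+2D and 36.2 to 38.0 in Cap-B+2D. Macrophage markers summed to 56.8 to 60.3 CPM in Cap-L and 60.5 to 67.8 in Cap-B, but to 185 to 188 in Bell-L and 117 to 121 in Bell-B. The part of these tissues in the differences between sides was not tested.

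**Figure D3:**
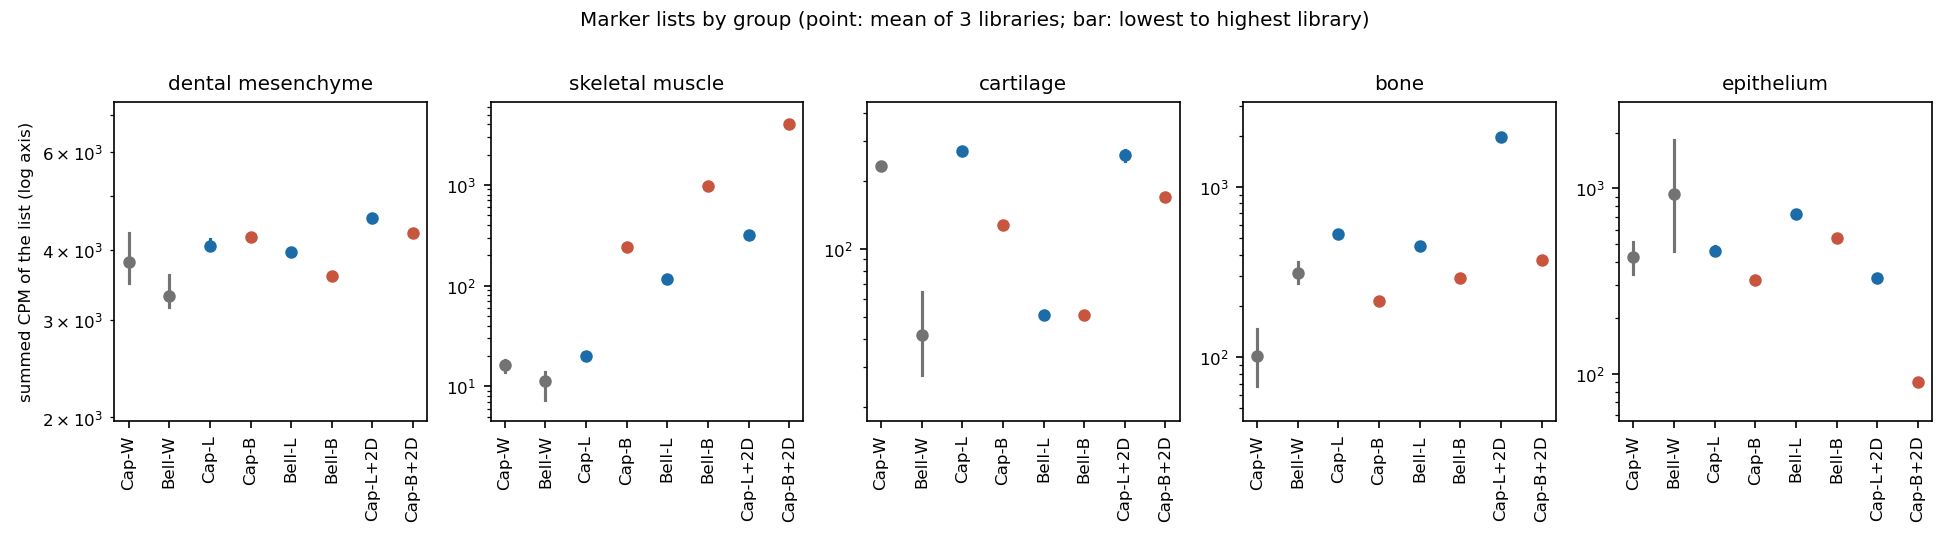
Summed CPM (y axes, logarithmic) of 5 marker lists in the 8 groups (x axes); points are means of 3 libraries and bars run from the lowest to the highest library. Summed muscle markers are higher in the buccal (red) than in the lingual (blue) part in each pair, and summed bone and epithelial markers are higher in the lingual part. Sums of dental mesenchyme markers lie between 3156 and 4609 throughout. Single genes can differ from the sums: in Bell-B, 1 bone marker was called higher and 1 lower of 4 tested. In Cap-B+2D, 1 dental mesenchyme marker was called higher and 3 lower than in Cap-L+2D.

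To compare the sides at the cap stage, Cap-B was set against Cap-L. Sfrp1, Sfrp4 and Sfrp5 were higher on the buccal side and Frzb was higher on the lingual side. A gene was called where edgeR's quasi-likelihood test gave an adjusted p (Benjamini-Hochberg, over all genes tested) under 0.05 and the log2 fold change was over 0.5 in size. By this rule 3 inhibitors were higher and 1 was lower in Cap-B, where 10.4% of all 20653 genes tested were higher and 7.10% were lower. Without the limit on the fold, 9 of the 10 passed, Dkk1 being the exception, and so did 42.3% of all genes tested. Libraries that do not overlap are common in these data. Between the sides they were found for 52.2% of all genes tested at the cap stage, 45.5% at the bell stage and 58.8% after culture. From cap to bell the share was 56.1% in the lingual part, 55.2% in the buccal part and 36.3% in undivided tissue.

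Sfrp5 (chromosome 19, 42186410 to 42190691, minus strand), a Wnt-binding Sfrp, had the largest difference among the inhibitors. It was at 0.612, 0.729 and 0.388 CPM in the Cap-L libraries and at 6.22, 5.90 and 6.50 in the Cap-B libraries. The sides were far apart, although Cap-L rested on only 11 to 26 counts per library. The log2 fold change was 3.42 ± 0.17 (SE, adjusted p = 1.19e-11). Frzb (chromosome 2, 80242314 to 80277969, minus strand) was at 339, 346 and 340 CPM in Cap-L and 176, 170 and 175 in Cap-B, a log2 fold change of -0.95 ± 0.04 (adjusted p = 1.77e-12). All of its Cap-L libraries lay above all of its Cap-B libraries. Sfrp1 (chromosome 8, 23901518 to 23939648, plus strand) went the opposite way, at 281, 278 and 280 CPM in Cap-L and 402, 394 and 395 in Cap-B (log2 fold change 0.53 ± 0.04, adjusted p = 7.24e-09). Sfrp4 (chromosome 13, 19807274 to 19817164, plus strand) was at 15.2, 13.6 and 17.0 CPM in Cap-L and 23.0, 23.1 and 19.1 in Cap-B. Its groups did not overlap but lay close, with a log2 fold change of 0.54 ± 0.09 (adjusted p = 9.88e-05). Leaving out Cap-L replicate 2, Cap-B replicate 1 or Cap-B replicate 2 in turn took its fold under the limit (log2 0.45 at the lowest), and with all 24 libraries in 1 fit it was not called (adjusted p = 0.610).

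The remaining inhibitors had folds under the limit. Dkk2 (chromosome 3, 131791053 to 131886065, plus strand) was at 165, 156 and 158 CPM in Cap-L and at 217, 216 and 211 in Cap-B, so that the buccal libraries were all above the lingual ones. Its log2 fold change of 0.45 ± 0.04 was under the limit, as was that of Dkk3 (0.50 ± 0.04), a diverged Dkk gene at 78.2 ± 1.25 (SD, n = 3) CPM in Cap-L and 109 ± 1.89 in Cap-B. Dkk3 was called only when Cap-L replicate 3 was left out. Sfrp2 (0.38 ± 0.05) was a little higher in Cap-B, and Wif1 (-0.42 ± 0.05), Notum (-0.43 ± 0.11) and Dkk1 (-0.23 ± 0.12) gave values below 0, all under the limit. The Dkk1 difference had an adjusted p of 0.131.

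At the bell stage the differences between the sides were of another kind. Dkk2 and Sfrp2 were higher on the lingual side, and Dkk1, Notum, Sfrp4 and Sfrp5 were higher on the buccal side. Thus 4 inhibitors were called higher and 2 lower in Bell-B, where 6.00% of all 21181 genes tested were higher and 6.88% were lower. Frzb, Dkk3 and Wif1 also had adjusted p-values under 0.05 but folds under the limit, and Sfrp1 missed both criteria (0.07 ± 0.03, adjusted p = 0.0585).

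Dkk2 was at 357, 366 and 355 CPM in Bell-L, its highest group, and at 115, 119 and 118 in Bell-B. There was no overlap, and the log2 fold change was -1.62 ± 0.03 (adjusted p = 1.89e-34), the largest difference towards the lingual side among the inhibitors at this stage. Dkk1 (chromosome 19, 30523263 to 30527065, minus strand) was at 8.47, 7.97 and 8.69 CPM in Bell-L and 14.3, 13.2 and 12.9 in Bell-B. Each of its buccal libraries exceeded each lingual one (log2 fold change 0.68 ± 0.08, adjusted p = 7.88e-10). The 2 Lrp-binding inhibitors therefore differed between the sides in opposite directions.

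Sfrp2 (chromosome 3, 83673628 to 83681623, plus strand) was at 488, 461 and 498 CPM in Bell-L and 280, 282 and 286 in Bell-B (log2 fold change -0.77 ± 0.03, adjusted p = 4.01e-23). Sfrp5 stayed higher on the buccal side, at 1.56, 2.00 and 2.35 CPM in Bell-L and 4.81, 5.20 and 5.58 in Bell-B (1.38 ± 0.14, adjusted p = 3.99e-11). Neither gene had overlapping sides. Notum (chromosome 11, 120544614 to 120552001, minus strand) was at 12.5, 11.7 and 11.7 CPM in Bell-L and 18.9, 19.1 and 18.9 in Bell-B, with no overlap (0.67 ± 0.06, adjusted p = 1.72e-11). Sfrp4 was at 22.1 ± 0.643 (SD, n = 3) CPM in Bell-L and 32.0 ± 0.245 in Bell-B (0.54 ± 0.05, adjusted p = 1.69e-11). With all 24 libraries in 1 fit, in which the variable undivided libraries add to the spread, Sfrp4 (adjusted p = 0.690) and Notum (adjusted p = 0.0534) were not called.

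**Figure D4:**
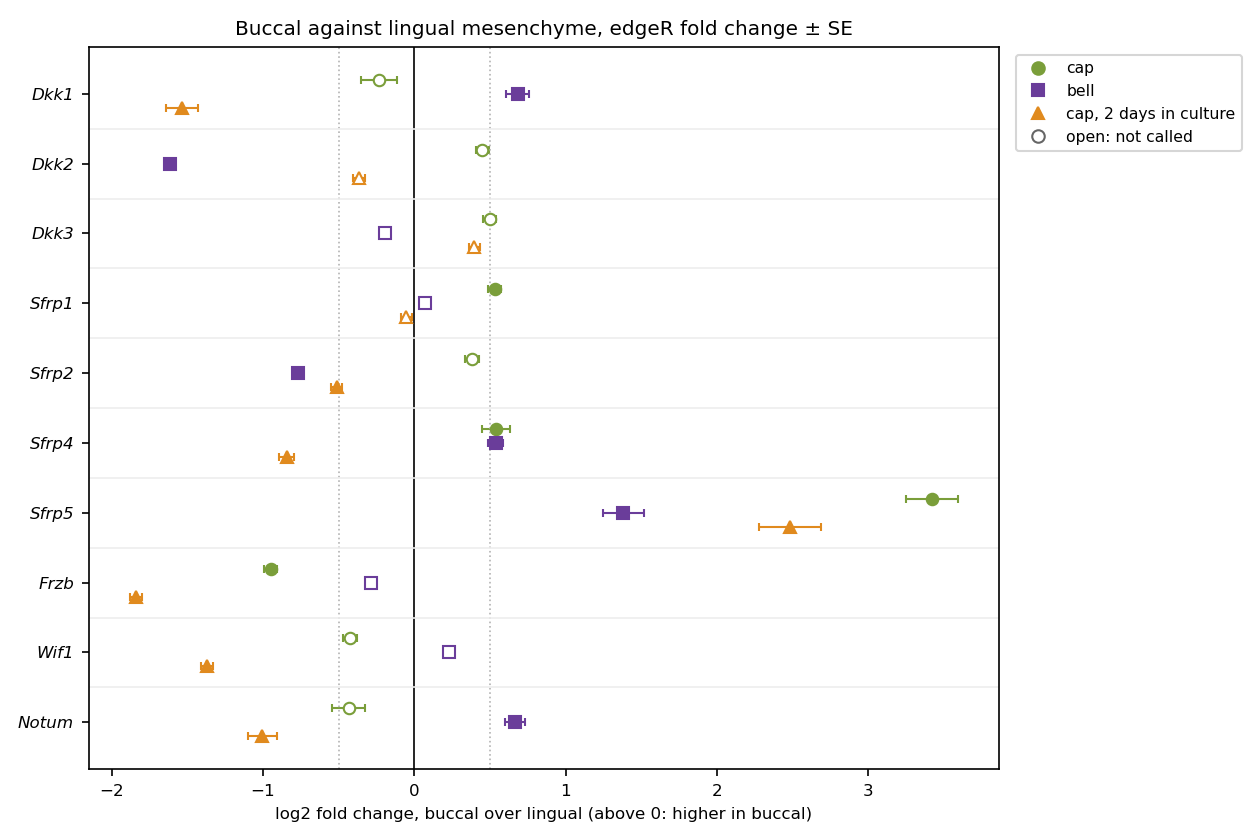
Log2 fold change of buccal over lingual mesenchyme (x axis, with SE from edgeR) for the 10 inhibitors (y axis) at the cap stage, at the bell stage and in cap-stage parts after 2 days in culture; filled symbols were called and dotted lines mark the limit of 0.5. Sfrp5 lies on the buccal side in all 3 settings (3.42, 1.38 and 2.48) and Frzb on the lingual side (-0.95, -0.28 and -1.84), whereas the other 8 genes cross 0 between settings.

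Whether the difference between the sides itself changed with stage was tested as an interaction over the 12 libraries of the divided cap and bell mesenchyme, at an adjusted p under 0.05 with no limit on the fold. A positive value means that the buccal-over-lingual difference was larger at the bell stage. The test called 4 inhibitors higher and 5 lower, where 14.5% of all genes tested were higher and 18.0% were lower. The exception was Sfrp4 (-0.01 ± 0.10, adjusted p = 0.949). Macrophage (6 of 6) and muscle markers (5 of 6) were lower in this test. Bone markers (4 of 4 tested), cartilage markers (4 of 4 tested) and epithelial markers (6 of 8, with 1 lower) were higher. Erythroid markers were lower (4 of 5), and of 5 markers of glia and neurons 2 were higher and 3 lower. Of the 10 dental mesenchyme markers, 5 were lower and 2 higher. The part of these markers was not tested. Dkk2 (-2.07 ± 0.05, adjusted p = 2.87e-22), Sfrp5 (-2.04 ± 0.25) and Sfrp2 (-1.16 ± 0.06) had the largest changes towards the lingual side. Dkk3 (-0.70 ± 0.05) and Sfrp1 (-0.46 ± 0.05) changed the same way. Notum (1.10 ± 0.12, adjusted p = 2.04e-08) and Dkk1 (0.91 ± 0.14) changed towards the buccal side, as did Frzb (0.66 ± 0.05) and Wif1 (0.65 ± 0.06). Wif1 was not called with all 24 libraries in 1 fit (adjusted p = 0.0770).

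Changes from cap to bell were then followed within each side. On the lingual side, 8 inhibitors rose and Frzb fell, where 14.2% of all 21425 genes tested rose and 5.78% fell. On the buccal side 5 rose and 2 fell, against 12.0% and 6.73% of 21992 genes. Dkk1, Dkk3, Sfrp4, Wif1 and Notum rose on both sides, Dkk2 and Sfrp2 rose on the lingual side and fell on the buccal side, and Sfrp1 was called on neither. Over all genes tested the median log2 fold change was 0.00 in each side, and over the inhibitors it was 0.94 on the lingual and 0.16 on the buccal side. Muscle markers (6 of 6 on each side), macrophage markers (6 of 6 lingual, 5 of 6 buccal) and epithelial markers (4 of 8 lingual, 7 of 8 buccal) rose as well. Bone markers fell in the lingual part (3 of 5) and rose in the buccal part (2 of 5). Cartilage markers summed to means of 271 CPM in Cap-L and 50.8 in Bell-L, with 2 of 4 tested called lower. Their means were 128 CPM in Cap-B and 51.0 in Bell-B, with 1 called lower and 2 higher. Erythroid markers rose (4 of 5 lingual, 3 of 5 buccal), with 1 lower on each side. The part of these tissues was not tested.

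Notum rose from 5.83, 6.68 and 6.28 CPM in Cap-L to the Bell-L values above, a log2 fold change of 0.94 ± 0.09 (adjusted p = 1.26e-09). On the buccal side it rose from 4.78, 4.89 and 4.06 CPM to 18.9, 19.1 and 18.9 CPM, a change of 2.05 ± 0.09 (adjusted p = 3.68e-19). The bell libraries were clear of the cap libraries on both sides. Dkk1 rose from 4.54, 4.74 and 3.99 CPM in Cap-L (0.93 ± 0.10) and from 3.43, 3.68 and 3.98 in Cap-B (1.86 ± 0.09, adjusted p = 1.76e-17). Wif1 (chromosome 10, 120869865 to 120936555, plus strand) was at 63.6, 65.0 and 67.5 CPM in Cap-L and 147, 146 and 148 in Bell-L (1.19 ± 0.04, adjusted p = 2.21e-17). In Cap-B it was at 47.1, 47.0 and 49.4 CPM and in Bell-B at 172, 173 and 172 (1.85 ± 0.04, adjusted p = 1.96e-28). All 3 genes thus had lower means on the buccal side than on the lingual side at the cap stage and higher means there at the bell stage.

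Dkk2 rose by 1.19 ± 0.04 on the lingual side (adjusted p = 1.23e-17) and fell by 0.87 on the log2 scale on the buccal side (SE 0.03, adjusted p = 1.66e-20). Sfrp2 did likewise with smaller values, 0.63 ± 0.04 and -0.52 ± 0.03, and its buccal fold dropped under the limit without Cap-B replicate 1. Dkk3 (chromosome 7, 111715224 to 111758264, minus strand) rose by 1.20 ± 0.04 on the lingual side, to 178 ± 1.10 (SD, n = 3) CPM, and by 0.51 ± 0.03 on the buccal side, to 155 ± 0.867 CPM. Frzb fell on the lingual side from the Cap-L values above to 184, 182 and 180 CPM (-0.89 ± 0.04, adjusted p = 1.13e-15). In the buccal part, where it was already lower, its value was -0.22 ± 0.03 and under the limit. Sfrp5 rose in the lingual part (1.77 ± 0.24, adjusted p = 1.07e-06) and was at -0.26 ± 0.10 in the buccal part. Sfrp4 gave 0.56 on both sides, with SEs of 0.07 and 0.06, and on each side leaving out 1 cap library (Cap-L replicate 2 or Cap-B replicate 3) took the fold under the limit.

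In the undivided mesenchyme, Dkk1, Dkk2, Dkk3, Wif1 and Notum rose from cap to bell, and none of the 10 fell, where 10.3% of all 20940 genes tested rose and 4.21% fell. These 5 calls were kept with each of the 6 libraries left out in turn. Notum was at 0.425, 3.51 and 1.82 CPM in Cap-W and 19.6, 25.3 and 27.3 in Bell-W (3.59 ± 0.55, adjusted p = 0.00463). Dkk1 was at 1.38, 1.99 and 2.08 CPM in Cap-W and 13.4, 16.5 and 19.6 in Bell-W (3.16 ± 0.23, adjusted p = 0.000324). Wif1 was at 15.5, 40.8 and 22.6 CPM in Cap-W and 208, 278 and 214 in Bell-W (3.14 ± 0.34, adjusted p = 0.00122). The stages were far apart for all 3 in spite of the scatter in Cap-W. Macrophage (6 of 6), endothelial (5 of 5), bone (3 of 4 tested) and erythroid markers (4 of 5) rose as well, cartilage markers fell (2 of 4 tested), and their part was not tested.

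Sfrp4 could not be placed in the undivided tissue, since it was at 4.19, 143 and 18.7 CPM in Cap-W and at 30.0, 38.0 and 22.9 in Bell-W. The log2 fold change of -0.87 ± 0.99 (adjusted p = 0.603) turned to 1.38 without Cap-W replicate 2. Sfrp5 was at 1.27, 0.596 and 0.354 CPM in Cap-W and at 2.07, 1.45 and 6.47 in Bell-W (2.18 ± 0.69, adjusted p = 0.0736). The highest value belonged to Bell-W replicate 3, and without it the log2 fold change was 1.27. That library had the most epithelial marker counts. It also exceeded the other Bell-W libraries in markers of glia and neurons (98.7 CPM against 27.5 and 26.1) and of cartilage (64.5 against 31.8 and 27.7). The part of these tissues was not tested. Frzb (-0.60 ± 0.20, adjusted p = 0.0809), Sfrp2 (-0.30 ± 0.22) and Sfrp1 (0.01 ± 0.15) did not pass either. DESeq2 and the fit of all 24 libraries called Sfrp5 and Frzb, and the fit with no filter on low counts also called Sfrp5.

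The undivided libraries did not lie between those of the parts for many inhibitors. At the cap stage Dkk1, Dkk2, Dkk3, Wif1 and Notum were lower in all Cap-W libraries than in every Cap-L and Cap-B library, as were 19.2% of all 20653 genes tested between the cap sides. Dkk2, for example, was at 46.2, 53.4 and 56.9 CPM in Cap-W, against 156 in the lowest library of the parts. At the bell stage Frzb, Wif1 and Notum were higher in Bell-W than in every library of the parts, and Dkk3 and Sfrp1 were lower, where 7.45% of all 21181 genes were higher and 11.3% lower. The other 5 inhibitors overlapped at each stage. The muscle markers were also lower in the undivided tissue than in either part, at 13.9 to 18.3 CPM in Cap-W and 7.27 to 13.8 in Bell-W. So were the bone markers (means of 102 CPM in Cap-W against 530 in Cap-L and 214 in Cap-B), the endothelial markers (155 against 367 and 331) and the macrophage markers (31.3 against 58.1 and 64.1) at the cap stage. The part of these tissues in the offsets was not tested, and no test was made between whole and divided tissue.

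To ask what was kept in vitro, cap-stage parts were compared after 2 days of culture. Frzb, Dkk1, Wif1, Notum, Sfrp4 and Sfrp2 were higher on the lingual side and Sfrp5 was higher on the buccal side. In Cap-B+2D 1 inhibitor was called higher and 6 lower, where 12.5% of all 21195 genes tested were higher and 12.5% were lower. The median log2 fold change of the 10 was -0.68, against 0.00 over all genes tested. Beside the muscle, bone, epithelial, glia and neuron markers above, endothelial and macrophage markers moved with the sides in culture. Endothelial markers were lower in Cap-B+2D (4 of 5, means of 332 CPM in Cap-L+2D and 139 in Cap-B+2D). Macrophage markers were lower there too (4 of 6, 228 against 155), as were 3 of 4 tested cartilage markers, with 1 higher. The part of these tissues was not tested.

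Frzb was at 289, 284 and 292 CPM in Cap-L+2D and 81.6, 78.9 and 82.2 in Cap-B+2D, a log2 fold change of -1.84 ± 0.04 (adjusted p = 5.38e-23). Wif1 was at 232, 231 and 242 CPM in Cap-L+2D and 94.6, 90.5 and 89.2 in Cap-B+2D (-1.37 ± 0.04, adjusted p = 2.95e-20). Both genes were well separated between the sides. Dkk1 was at 10.9, 9.42 and 8.91 CPM in Cap-L+2D and 3.55, 3.10 and 3.38 in Cap-B+2D (-1.54 ± 0.11, adjusted p = 4.11e-12). Notum was at 12.7, 10.9 and 11.6 CPM in Cap-L+2D and 5.32, 5.63 and 6.67 in Cap-B+2D (-1.003 ± 0.09, adjusted p = 1.46e-09). For both, the lowest lingual library was above the highest buccal one, the reverse of the order at the bell stage. Sfrp5 was at 0.583, 0.604 and 0.422 CPM in Cap-L+2D and 2.67, 3.27 and 3.00 in Cap-B+2D (2.48 ± 0.21, adjusted p = 1.32e-10). It was the only inhibitor called higher in the buccal part in all 3 comparisons of side.

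Sfrp4 was at 64.4, 63.9 and 59.9 CPM in Cap-L+2D and 37.4, 34.0 and 33.6 in Cap-B+2D (-0.84 ± 0.05, adjusted p = 1.26e-13), but it was not called with all 24 libraries in 1 fit (adjusted p = 0.287). Sfrp2 was at 503, 496 and 500 CPM in Cap-L+2D and 339, 354 and 362 in Cap-B+2D (-0.51 ± 0.04, adjusted p = 1.05e-11), and its fold dropped under the limit without Cap-B+2D replicate 1. Dkk2 (-0.37 ± 0.04) and Dkk3 (0.39 ± 0.04) had adjusted p-values under 0.05 and folds under the limit. Sfrp1 differed little (-0.05 ± 0.04, adjusted p = 0.225).

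Within each side, cultured parts were next compared with fresh cap-stage parts. In the lingual part 7 inhibitors rose and none of the 10 fell, where 19.6% of all genes tested rose and 15.9% fell. In the buccal part 3 rose and 3 fell, against 17.9% and 16.6% of all genes. Wif1 rose in both, by 1.84 ± 0.04 on the lingual side (adjusted p = 9.54e-22) and 0.90 ± 0.04 on the buccal side (adjusted p = 3.35e-20). Dkk3 rose in both by similar values, 1.20 ± 0.04 and 1.10 ± 0.03. Sfrp4 rose by 2.04 ± 0.07 on the lingual side, its largest change between any groups compared here, and by 0.66 ± 0.06 on the buccal side. The same fresh libraries serve as the reference for the change with stage, so the changes with stage and culture are not independent.

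Dkk1 (1.12 ± 0.10), Dkk2 (0.75 ± 0.04), Notum (0.89 ± 0.09) and Sfrp2 (0.66 ± 0.04) rose in the lingual part. Their values in the buccal part were -0.18 ± 0.12, -0.06 ± 0.03, 0.33 ± 0.11 and -0.23 ± 0.03, none of them past the limit. Conversely Frzb (-1.14 ± 0.03, adjusted p = 2.4e-24), Sfrp5 (-1.10 ± 0.11, adjusted p = 3.67e-10) and Sfrp1 (-0.58 ± 0.03, adjusted p = 2.61e-17) fell in the buccal part. In the lingual part these 3 gave -0.25 ± 0.04, -0.16 ± 0.31 and 0.00 ± 0.04. Erythroid markers were at 27.8 to 33.7 CPM in the cultured libraries and at 2409 or more in the fresh cap-stage parts. Macrophage markers rose on both sides (6 and 5 of 6). Muscle markers (6 of 6) and bone markers (4 of 5) rose on both sides too, with 1 bone marker lower in the buccal part. Epithelial markers fell (5 of 8 lingual, 7 of 8 buccal), with 1 higher in the buccal part. Endothelial markers fell in the buccal part (5 of 5), whereas in the lingual part 1 rose and 1 fell. Markers of glia and neurons fell on both sides (4 of 5 each), with 1 higher in the buccal part. The part of these tissues was not tested.

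**Figure D5:**
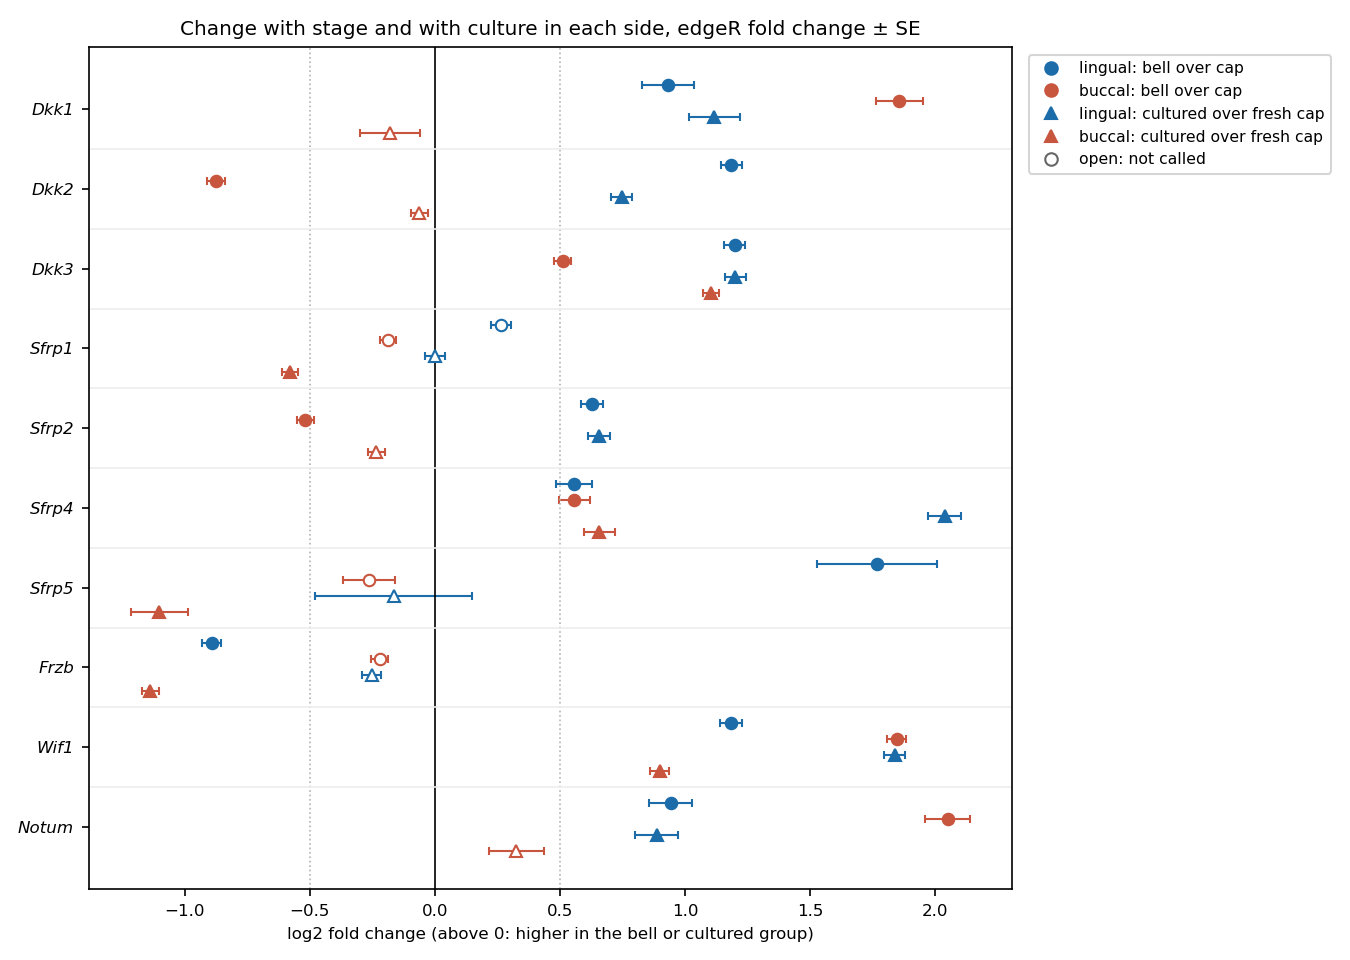
Log2 fold change (x axis, with SE from edgeR) of the 10 inhibitors (y axis) from cap to bell (circles) and from fresh to cultured cap-stage tissue (triangles), in the lingual (blue) and buccal (red) part; open symbols were not called and dotted lines mark the limit of 0.5. With culture, blue symbols lie to the right of red ones for all 10 genes, from Dkk3 (1.20 against 1.10) to Sfrp4 (2.04 against 0.66).

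The interaction of side with culture tested the difference between these changes over 12 libraries. It called 0 inhibitors higher and 9 lower, where 16.0% of all genes tested were higher and 19.5% were lower. Macrophage (6 of 6), endothelial (4 of 5), bone (4 of 5) and epithelial markers (5 of 8) were lower too. Of 6 muscle markers, 3 were lower and 1 higher. Of the 5 erythroid markers 2 were lower and 1 higher, and so it was for the 5 markers of glia and neurons. Of the 10 dental mesenchyme markers, 6 were lower and 2 higher, and 2 epithelial markers and 2 of 4 tested cartilage markers were higher. The part of these markers was not tested. For each of the 9 inhibitors, the buccal-over-lingual difference thus moved towards the lingual side with culture. The estimates ran from Sfrp4 (-1.39 ± 0.10, adjusted p = 2.34e-12) and Dkk1 (-1.31 ± 0.17, adjusted p = 1.77e-07) to Notum (-0.57 ± 0.15, adjusted p = 0.0035). Wif1 (-0.95 ± 0.06), Sfrp5 (-0.94 ± 0.32), Sfrp2 (-0.90 ± 0.06), Frzb (-0.89 ± 0.05), Dkk2 (-0.82 ± 0.06) and Sfrp1 (-0.59 ± 0.05) were in between. Dkk3 did not pass (-0.11 ± 0.06, adjusted p = 0.139). With all 24 libraries in 1 fit Sfrp4 (adjusted p = 0.310), Sfrp5 (adjusted p = 0.390) and Notum (adjusted p = 0.345) were not called, and Sfrp5 was also lost without Cap-L replicate 3, Cap-L+2D replicate 1 or Cap-L+2D replicate 2 (adjusted p up to 0.0807).

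Cultured cap-stage tissue was also set against the bell stage, which is as old as the cultured tissue by days. In the lingual part 3 inhibitors were higher and 1 lower in culture, where 14.4% of all genes tested were higher and 16.8% were lower. Sfrp4 (1.48 ± 0.06), Wif1 (0.65 ± 0.04) and Frzb (0.64 ± 0.04) were higher than in Bell-L, and Sfrp5 (-1.93 ± 0.25) was lower. Dkk3 (0.00 ± 0.04, adjusted p = 0.955), Sfrp2 (0.03 ± 0.04), Notum (-0.06 ± 0.08) and Dkk1 (0.19 ± 0.09, adjusted p = 0.0843) gave small values. In the buccal part 2 were higher and 5 lower, against 15.5% and 16.3% of all genes. Dkk1 (-2.03 ± 0.09, adjusted p = 1.4e-19) and Notum (-1.73 ± 0.08, adjusted p = 6.36e-19) were the furthest below Bell-B, followed by Wif1 (-0.95 ± 0.03), Frzb (-0.92 ± 0.03) and Sfrp5 (-0.84 ± 0.11), while Dkk2 (0.81 ± 0.03) and Dkk3 (0.59 ± 0.03) were above it. Sfrp5 was not called there with all 24 libraries in 1 fit (adjusted p = 0.0654). Marker lists differed strongly in these comparisons. In Cap-L+2D, epithelial (8 of 8) and erythroid markers (5 of 5) were lower than in Bell-L, and muscle (6 of 6) and bone markers (5 of 5) were higher. Cartilage markers (4 of 4 tested) were higher too, whereas markers of glia and neurons (3 of 5) and endothelial markers (2 of 5) were lower. In Cap-B+2D, epithelial (7 of 8), endothelial (5 of 5) and erythroid markers (5 of 5) were lower than in Bell-B. Muscle markers (6 of 6) were higher there, and 3 bone markers were higher and 1 lower. Of 4 tested cartilage markers 3 were higher and 1 lower, and of 5 markers of glia and neurons 1 was higher and 3 lower. Their part was not tested.

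Other genes of the pathway were counted in 4 lists, to be read against the shares of all genes called higher and lower, 10.4% and 7.10% in Cap-B, 6.00% and 6.88% in Bell-B, and 12.5% each way in Cap-B+2D. Of 11 further Wnt inhibitors of the cell surface or extracellular space, 8 were tested at the cap stage, with 3 higher and 2 lower in Cap-B. Draxin, a secreted axon guidance protein that also antagonizes Wnt, was higher there (1.23 ± 0.10), and Rnf43, a ubiquitin ligase that removes Frizzled receptors, was lower (-1.06 ± 0.10). At the bell stage 0 of 9 were called between the sides. After culture 2 were higher and 4 were lower in Cap-B+2D, including the Bmp and Wnt antagonist Sostdc1, at 181 ± 4.36 (SD, n = 3) CPM in Cap-L+2D and 35.4 ± 0.952 in Cap-B+2D (-2.36 ± 0.04), and the Wnt protease Trabd2b (-1.54 ± 0.05). The 20 receptors and partners of the inhibitors were all tested, with 1 higher and 5 lower in Cap-B, 0 and 3 in Bell-B, and 4 and 3 in Cap-B+2D. The Frizzled receptors Fzd9 (-1.55 ± 0.13) and Fzd5 (-1.39 ± 0.10) were lower in Cap-B, the glypican Gpc3 (-0.68 ± 0.03) and Fzd1 (-0.66 ± 0.03) were lower in Bell-B, and Kremen2 (2.58 ± 0.10), a Dkk receptor, and Fzd4 (1.56 ± 0.05) were higher in Cap-B+2D.

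Of 19 Wnt ligands, 15 were tested at the cap stage, with 6 higher and 5 lower in Cap-B. Wnt16 was higher in Cap-B (2.17 ± 0.10) and in Bell-B (1.45 ± 0.07). Wnt10b (-1.68 ± 0.10) was lower in Cap-B and Wnt11 (-1.28 ± 0.06) in Bell-B, where 2 ligands were higher and 3 lower of 15 tested. After culture 3 were higher and 7 lower of 12 tested, with Wnt2 at 17.3 ± 0.80 (SD, n = 3) CPM in Cap-L+2D and 1.90 ± 0.153 in Cap-B+2D (-3.20 ± 0.10) and Wnt7b at -2.05 ± 0.15. In the interaction of side with culture, 2 ligands were higher and 10 lower of 15 tested, where 16.0% of all genes were higher and 19.5% lower. Of 9 canonical target genes, 3 were higher and 3 lower in Cap-B, 2 and 3 in Bell-B, and 2 and 4 in Cap-B+2D. The target Sp5, a zinc finger factor, was lower on the buccal side in all 3 settings, at -2.46 ± 0.17, -1.62 ± 0.14 and -3.01 ± 0.19. Bambi, a decoy receptor of the Tgf-beta family, was lower at the cap stage (-1.42 ± 0.06) and after culture (-2.18 ± 0.05), and Lgr5, an R-spondin receptor, at the bell stage (-0.70 ± 0.03). For the comparisons of side at cap, at bell and in culture, in this order, the median log2 fold changes were -0.15, 0.05 and -0.72 for the further inhibitors and -0.15, -0.06 and -0.17 for the receptors and partners. They were 0.21, -0.09 and -0.92 for the ligands and 0.30, -0.05 and 0.04 for the targets. Over all genes tested they were -0.01, 0.00 and 0.00, and over the 10 secreted inhibitors 0.42, 0.15 and -0.68.

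Likeness of expression was measured as the root-mean-square difference between log2 group means, each centred over the 8 groups, among 14013 genes with an average log2 CPM of at least 2. For Dkk1 the nearest of all these genes was Notum, and for Notum it was Dkk1, at 0.317 log2 units, while their own root-mean-square variation over the groups was 1.03 and 1.22. The next nearest were Lcp2 (0.363) for Dkk1 and Wif1 (0.395) for Notum. Wif1 itself was nearest to Entpd3 (0.223) and Clec11a (0.279). Frzb was nearest to Aldh1a2 (0.185), an enzyme of retinoic acid synthesis, and Slc5a7 (0.236). Dkk2 was nearest to Larp6 (0.358) and Chsy3 (0.377). Sfrp2 was nearest to Prickle2 (0.145) and Gm13735 (0.160), Sfrp1 to Tmx3 (0.0761) and Erlin2 (0.0859), and Sfrp4 to Slc6a6 (0.243) and Erap1 (0.244). For Sfrp5 the nearest genes, Lrrtm4 (0.575) and Adgrg6 (0.577), were further away than for any other inhibitor examined over the 8 groups. Such distances tend to grow with a gene's own variation, which was also largest for Sfrp5 (1.33). It was 0.188 for Sfrp1 and 0.311 for Sfrp2, so the distances do not rank how well the inhibitors were matched. With the undivided groups left out, Dkk1 and Notum remained nearest to each other (0.175) and Wif1 to Entpd3 (0.112) and Clec11a (0.194), while the nearest gene changed for Dkk2 (Sfrp2), Sfrp1 (Raph1), Sfrp2 (Olfml1), Sfrp4 (Insc), Sfrp5 (Col6a6) and Frzb (Sp7). These values describe group means of the same libraries, and Dkk3 was left out because it was called in no comparison of side.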

How the data were processed

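RNA-seq was performed on dental mesenchyme in 8 groups of 3 libraries, assigned from their labels. The authors deposited 1 table of raw counts of read pairs per gene, without normalization. Its header names featureCounts (Subread 2.0.0) in paired mode over exons, with the Ensembl release 107 annotation of GRCm39, without strand, and with its defaults, which leave out read pairs mapped to several places or genes. The sources name different aligners (STAR, or Bowtie 1.2.3 in the submitters' processing notes) and library kits, so the aligner is not settled. Gene lengths were the exon bases in the same table. Read totals per library were 20581720 to 39266497, and floors of 3 counts cover counting error only.

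Counts were normalized (TMM), filtered (filterByExpr) and tested with the quasi-likelihood test of edgeR 4.0.16 in R 4.3.3, with the libraries of the groups compared in each fit and no replicate block. Groups of 1 side shared a fit of 9 libraries, and interactions one of 12. P-values were adjusted over all genes tested (Benjamini-Hochberg). A call needed an adjusted p under 0.05 and, except for interactions, a log2 fold change over 0.5 in size. The code was tested on simulated data.

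The 10 inhibitors were named throughout. From 4 lists of pathway genes, the 2 called genes with the largest fold were named in each comparison of side. Likeness used genes with an average log2 CPM of at least 2. The members and lists were chosen with earlier results of these data known. The alternatives were RLE normalization, DESeq2 1.42.0, no filter, all 24 libraries in 1 fit, a replicate block, leaving out the 100 most abundant genes, no limit on the fold, leaving out each library, lengths without shared bases and, added after seeing the data, the 6 divided groups alone for ranges and likeness. Upstream sequences came from the GRCm39 genome with GENCODE M39 start sites.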

Additional observations from a re-analysis of the deposited data

Results flagged for a closer look

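The difference between the buccal and the lingual part itself differed between stages for 9 of the 10 inhibitors, and between fresh and cultured cap-stage tissue for 9 of the 10, by edgeR's interaction test at an adjusted p under 0.05. Of all genes tested, 14.5% were higher and 18.0% lower with stage, and 16.0% and 19.5% with culture. Values are differences of log2 fold changes, buccal over lingual, at the bell stage minus the cap stage, or in culture minus fresh tissue. With stage they were -2.07 for Dkk2, -2.04 for Sfrp5, -1.16 for Sfrp2, -0.70 for Dkk3 and -0.46 for Sfrp1, and 1.10 for Notum, 0.91 for Dkk1, 0.66 for Frzb and 0.65 for Wif1. With culture they were -1.39 for Sfrp4, -1.31 for Dkk1, -0.95 for Wif1, -0.94 for Sfrp5, -0.90 for Sfrp2, -0.89 for Frzb, -0.82 for Dkk2, -0.59 for Sfrp1 and -0.57 for Notum. Both tests share the 6 fresh cap-stage libraries. Muscle markers were higher in the buccal part in all 3 settings. In the test with stage 5 of 6 were lower, and in the test with culture 3 of 6 were lower and 1 was higher. With culture, macrophage (6 of 6), endothelial (4 of 5), bone (4 of 5) and epithelial markers (5 of 8) were lower. In that test 2 epithelial markers and 2 of 4 tested cartilage markers were higher. With stage, macrophage (6 of 6) and erythroid markers (4 of 5) were lower. Bone and cartilage markers (4 of 4 tested each) and epithelial markers (6 of 8, with 1 lower) were higher. Of 5 markers of glia and neurons, 2 were higher and 3 lower with stage. Of the 10 dental mesenchyme markers, 6 were lower and 2 higher with culture, and 5 were lower and 2 higher with stage. The part of these markers was not tested.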

How the results depend on the processing

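Of 120 results (10 inhibitors in 12 comparisons), 80 were called. Of these, 68 were called under all of RLE normalization, DESeq2, no filter, a replicate block, leaving out the 100 most abundant genes, and all 24 libraries in 1 fit, and 74 in every fit that left out 1 library. No called value changed sign in any of these fits. All 12 calls lost under an alternative other than leave-one-out were lost with all 24 libraries in 1 fit, where the variable undivided libraries enter the spread. They were 7 calls of Sfrp4 (all but those of Cap-L+2D against Cap-L and Bell-L), 2 each of Notum and Sfrp5 and 1 of Wif1. Without a limit on the fold, 9 inhibitors instead of 4 were called in Cap-B vs Cap-L. The counts over all genes then rose from 3611 to 8746 there, and to 7846, 11569, 10725, 14126, 13140, 10557, 14768 and 14449 in the other comparisons of divided tissue (in the order bell sides, cultured sides, Bell-L vs Cap-L, Cap-L+2D vs Cap-L, Cap-L+2D vs Bell-L, Bell-B vs Cap-B, Cap-B+2D vs Cap-B, Cap-B+2D vs Bell-B). With all 24 libraries the counts were 5887 instead of 3037 for the undivided tissue, 2581 instead of 7137 for side by stage and 4048 instead of 7842 for side by culture, and without 1 undivided library the first fell to 1758 at the lowest. The replicate block kept all 80 calls (for example 4 inhibitors called in Cap-B vs Cap-L and 9 in each interaction). Same-numbered libraries did not deviate together (42 pairs, correlations -0.06 to 0.0837, mean 0.00479, 0 over 0.1), so no pairing by number was seen. A shared origin with an effect smaller than the counting error would not show in these correlations, so pairing was not excluded. RLE normalization moved the median log2 fold change over all genes tested by at most 0.0166 (Cap-B+2D vs Cap-B). Among the alternative fits the largest shift was 0.0325, for side by culture with all 24 libraries in 1 fit. That fit also changes the libraries and genes that enter. Leaving out the undivided groups, chosen after seeing the data, lowered the range over group means from 12.6-fold to 4.15-fold for Notum, 9.08-fold to 4.03-fold for Dkk1, 8.94-fold to 4.91-fold for Wif1 and 6.89-fold to 3.07-fold for Dkk2. Sfrp5 and Dkk1 rest on few counts, so small differences in them were not detectable at this depth.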
